A study of Mus musculus with 8 samples.

Results

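The genes described here are 36 genes of cholesterol synthesis and of the SREBP system that controls it, read in single cells of the mouse tumour line Tri-PyMT. They were listed by name, by step of the pathway, and cover the mevalonate steps (7 genes), squalene to lanosterol (3), the late sterol steps (8), SREBP regulators (5), sterol transport (4) and fatty acid synthesis (9). All 36 had a row among the 16647 gene rows of the count table; Msmo1 stood under its older symbol Sc4mol.

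Tri-PyMT cells come from a primary metastatic breast tumour of a mouse with 3 transgenes, MMTV-PyMT, Fsp1-cre and Rosa26mT/mG. MMTV-PyMT drives a viral oncogene in mammary epithelium, and the Rosa26mT/mG locus makes a red membrane protein until Cre removes it and a green one afterwards. Cre is under the promoter of Fsp1 (S100a4), so the colour records whether that promoter has been active at any time, and both populations carry all 3 alleles. The cells were grown in DMEM with FBS, sorted by colour into the GFP+ and the RFP+ population, and profiled by Drop-seq, which tags the polyadenylated RNA of each cell with a bead barcode. Each population has 2 libraries, each run on 2 lanes that are pooled in the table, so n = 2 libraries per population; the labels do not tell whether they are separate cultures, so the spread behind each p-value is that of the libraries and may be technical. No age was given for the animal.

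The GFP+ labelled libraries held 2598187 counts in 1597 cells and 2550319 in 1798 cells, and the RFP+ labelled libraries 3081009 in 1998 cells and 2988631 in 1997 cells. The reporter rows of the table ran against the labels. The GFP row was at 99.7 and 104 CPM (a scale that sets every library to the same total count) in the libraries labelled GFP+, against 612 and 590 CPM in those labelled RFP+, and the RFP row at 2943 and 3053 CPM in the libraries labelled GFP+, against 132 and 137 CPM in those labelled RFP+. The populations are therefore called by their labels throughout, and every direction below rests on those labels. S100a4 was at 1843 and 2114 CPM in GFP+ labelled libraries and at 648 and 676 CPM in RFP+ labelled libraries. Of the epithelial markers 17 of 17 tested were lower in GFP+ labelled libraries (summed level 1849 to 1986 CPM, against 4054 to 4131 CPM in RFP+ labelled libraries), and of the mesenchymal markers 12 of 13 tested were higher (6383 to 6769 CPM, against 3221 to 3322 CPM). The mesenchymal list and its sum include S100a4, so they are not independent of the S100a4 values above. Markers of immune, endothelial, erythroid and fat cells summed to 12.4 CPM or less for each list in every library, and fibroblast markers to 18.4 to 19.2 CPM in GFP+ labelled and 5.69 to 8.44 CPM in RFP+ labelled libraries. The part of the epithelial and mesenchymal difference in the results below was not tested.

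Cholesterol is built from acetyl-CoA. The mevalonate steps make isoprenoid units, these are joined to squalene, squalene is closed to lanosterol, and the late enzymes trim lanosterol to cholesterol. When sterol in the endoplasmic reticulum is low, Scap carries the SREBP precursors to the Golgi, where they are cut, and the released factor raises transcription of the synthesis genes. When sterol is high, Insig proteins hold Scap back. SREBP-1, from Srebf1, acts mainly on fatty acid genes, and SREBP-2, from Srebf2, mainly on sterol genes. Serum in the medium supplies lipoprotein cholesterol to cultured cells.

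Several enzymes of sterol synthesis were modestly higher in GFP+ labelled than in RFP+ labelled libraries. Cyp51 was 1.48-fold, Idi1 1.79-fold, Hsd17b7 1.62-fold and Sqle 1.32-fold higher, and the fatty acid activating enzyme Acsl3 was 1.48-fold higher. Dhcr7, the reductase of a final step, went the other way at 0.527-fold, and passed the count filter through the RFP+ labelled libraries only. Cyp51, Acsl3 and the sterol transport gene Npc2 (1.22-fold higher) were called in all 12 alternative settings. Idi1, Hsd17b7, Sqle and Dhcr7 were called neither by DESeq2 nor by edgeR with each cell thinned to 1000 counts. None of the 3 SREBP regulators that could be tested was called by edgeR (adjusted p = 0.519 or higher); DESeq2 called 0 of them as well, and 0 had an unadjusted edgeR p under 0.05. Summed over the 18 sterol synthesis genes, the level was 779 ± 22.3 CPM in GFP+ labelled and 657 ± 24.1 CPM in RFP+ labelled libraries (SD, n = 2), a ratio of 1.18 ± 0.0551.

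In edgeR's quasi-likelihood test, with Benjamini-Hochberg adjustment over 7595 genes and a threshold of 0.05, 28 of the 36 genes had enough counts to be tested. Of these 28, 9 were higher in GFP+ labelled libraries, 1 was lower and 18 were not called. Among all genes tested 30.5% were called, 15.7% higher and 14.9% lower, so calls were common in this comparison. The counts by step given below are to be read beside these shares. The median log2 fold was 0.17 over the 28 genes and 0.0024 over all genes tested. Both GFP+ labelled libraries lay above both RFP+ labelled libraries for 14 of the 28 genes and below them for 2, against 34.3% and 30.7% of all genes tested. The count of calls differed between settings. DESeq2 called 3 of the 28 higher (Cyp51, Npc2 and Acsl3) and 0 lower (1 at an unadjusted p under 0.05), where it called 4.79% and 4.87% of all genes. With each cell thinned to 1000 counts, 4 of 29 tested were higher and 0 lower, where 9.7% and 9.57% of all genes were, and the median log2 fold of the 29 was 0.020. Thinning both leaves out cells under 1000 counts and samples down the others; with the same cells at their full depth, 7 of 28 were higher and 1 lower.

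**Figure D1:**
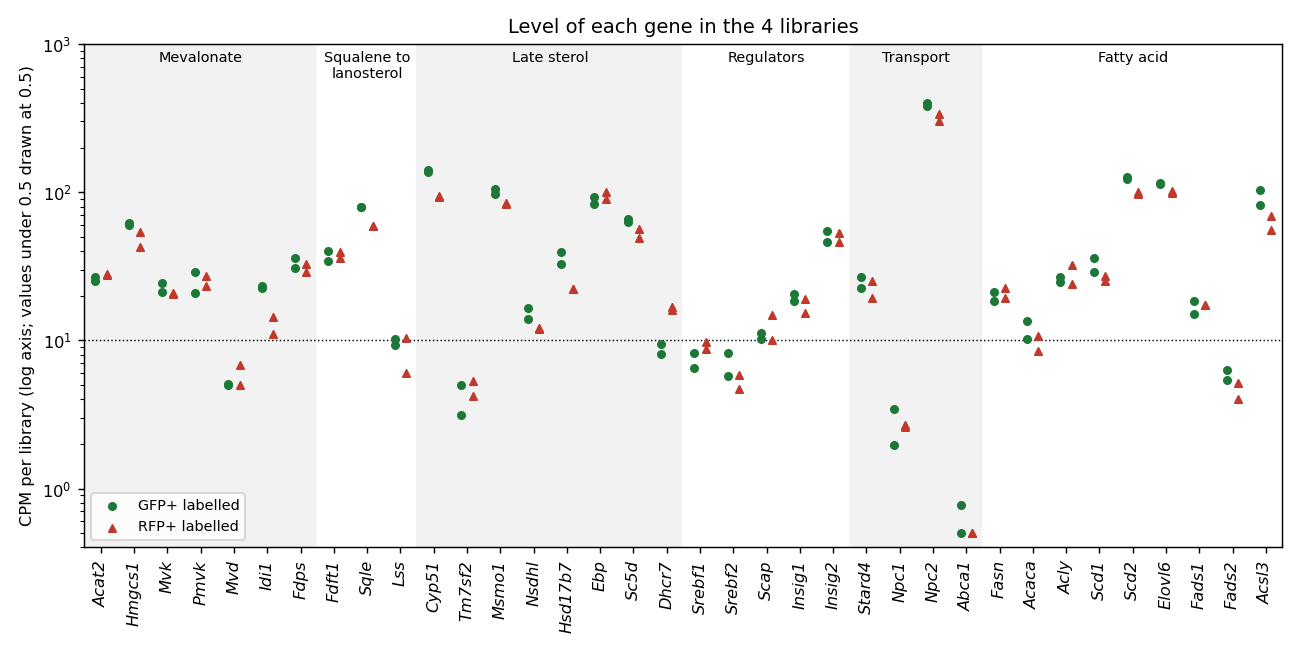
Level of each of the 36 genes (CPM, log axis) in each of the 4 libraries, GFP+ labelled libraries first, grouped by step; the dotted line marks 10 CPM and values under 0.5 CPM are drawn at 0.5. Cyp51 lies at 136 and 142 CPM in GFP+ labelled libraries and 92.2 and 94.0 CPM in RFP+ labelled libraries, and Srebf1 and Srebf2 lie under 10 CPM in all 4.

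Promoters of the called sterol synthesis enzymes that had a window are shown, because SREBP acts on genes of this pathway together with the factors NF-Y and Sp1; Sqle, also called, is named only. RefSeq windows on GRCm38.p6, from 250 bases before to 50 after a transcription start, were at hand for 28 of the 36 genes (36 windows). Capitals mark the sterol regulatory element searched as TCACNCCAC and the NF-Y box searched as CCAAT, each on both strands, so that a box on the other strand reads ATTGG; matches were allowed to overlap.
Hmgcs1, chr13:119690101-119690400, plus strand: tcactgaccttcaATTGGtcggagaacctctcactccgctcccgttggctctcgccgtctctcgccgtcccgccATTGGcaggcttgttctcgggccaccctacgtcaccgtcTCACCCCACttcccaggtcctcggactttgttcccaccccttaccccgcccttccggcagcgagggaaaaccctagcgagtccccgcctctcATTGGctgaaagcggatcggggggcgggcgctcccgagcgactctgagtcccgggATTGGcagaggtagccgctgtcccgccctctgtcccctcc
Idi1, chr13:8885356-8885655, plus strand: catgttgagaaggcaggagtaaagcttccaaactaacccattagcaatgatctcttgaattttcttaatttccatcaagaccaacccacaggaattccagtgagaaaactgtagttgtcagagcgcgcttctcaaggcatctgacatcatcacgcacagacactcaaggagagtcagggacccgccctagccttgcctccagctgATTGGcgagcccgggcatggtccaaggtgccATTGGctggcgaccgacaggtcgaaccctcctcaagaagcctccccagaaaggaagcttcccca
Cyp51, chr5:4104648-4104947, minus strand: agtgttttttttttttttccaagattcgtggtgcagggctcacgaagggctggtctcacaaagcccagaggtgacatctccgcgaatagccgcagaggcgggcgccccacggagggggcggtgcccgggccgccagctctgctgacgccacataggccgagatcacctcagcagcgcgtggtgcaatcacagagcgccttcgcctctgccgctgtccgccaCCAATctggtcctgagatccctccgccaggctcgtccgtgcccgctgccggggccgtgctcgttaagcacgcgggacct
Msmo1, chr8:64733529-64733828, minus strand: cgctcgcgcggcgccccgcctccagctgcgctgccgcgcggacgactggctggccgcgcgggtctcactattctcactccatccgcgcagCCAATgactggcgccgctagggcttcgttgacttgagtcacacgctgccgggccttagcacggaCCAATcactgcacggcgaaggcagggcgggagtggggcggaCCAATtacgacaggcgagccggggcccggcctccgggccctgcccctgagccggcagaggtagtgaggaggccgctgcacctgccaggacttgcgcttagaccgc
Hsd17b7, chr1:169969156-169969455, minus strand: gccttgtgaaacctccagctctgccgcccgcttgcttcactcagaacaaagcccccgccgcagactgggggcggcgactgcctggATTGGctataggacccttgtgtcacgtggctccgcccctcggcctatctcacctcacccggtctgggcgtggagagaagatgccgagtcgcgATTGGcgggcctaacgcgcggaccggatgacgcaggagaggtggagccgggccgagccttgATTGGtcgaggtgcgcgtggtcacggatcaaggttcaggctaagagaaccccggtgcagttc
Dhcr7, first window, chr7:143822917-143823216, plus strand: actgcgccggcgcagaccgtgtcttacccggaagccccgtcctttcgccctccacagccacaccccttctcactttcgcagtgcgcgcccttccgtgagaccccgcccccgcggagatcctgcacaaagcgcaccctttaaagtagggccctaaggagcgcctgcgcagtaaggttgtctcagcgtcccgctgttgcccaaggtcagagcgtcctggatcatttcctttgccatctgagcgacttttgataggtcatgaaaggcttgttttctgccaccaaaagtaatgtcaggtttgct
Dhcr7, last window, chr7:143829964-143830263, plus strand: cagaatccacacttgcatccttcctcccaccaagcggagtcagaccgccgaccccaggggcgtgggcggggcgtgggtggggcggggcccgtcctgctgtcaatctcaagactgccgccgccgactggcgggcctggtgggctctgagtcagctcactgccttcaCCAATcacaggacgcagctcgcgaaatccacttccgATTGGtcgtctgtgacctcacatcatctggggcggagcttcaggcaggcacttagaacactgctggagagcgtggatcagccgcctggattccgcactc
The element TCACNCCAC was found in 1 of the 36 windows, that of Hmgcs1, and in 1.24% of the 32851 promoter windows in the RefSeq table. Only this form was searched, so a window without a match was not shown to lack a sterol regulatory element. The NF-Y box was in 23 of the 36 windows (63.9%), against 37.4% of all windows, and in at least 1 window of 22 of the 28 genes. The Sp1 box, searched as GGGCGG on both strands, was in 28 of the 36 windows (77.8%), against 35.7% of all. Hmgcs1 has 4 NF-Y boxes, Msmo1 and Hsd17b7 have 3, Idi1 has 2 and Cyp51 has 1. Dhcr7, the gene that was lower, has 3 windows, of which the last has 2 boxes and the others, one of them not shown, have none. These matches are letters in a window and were not read as binding.

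Of the mevalonate genes 6 of 7 were tested, and 2 were higher in GFP+ labelled libraries, 0 lower and 4 not called by edgeR, with a median log2 fold of 0.11; none was lower at an unadjusted edgeR p under 0.05, and DESeq2 called 0 of the 6 in either direction. Idi1, at chr13:8885501-8892451, interconverts the isoprenoid units that all later products are built from. It was at 22.7 and 23.1 CPM in GFP+ labelled libraries and at 14.3 and 11.0 CPM in RFP+ labelled libraries, so the populations did not overlap. The log2 fold was 0.84 ± 0.22 (SE) with an edgeR adjusted p of 0.00306; without the second RFP+ labelled library it was 0.68, with an edgeR adjusted p of 0.057. DESeq2 gave Idi1 an adjusted p of 0.13, and edgeR one of 0.0558 with thinned cells. The SE here and below rests on a dispersion shared across genes, not on a gene's own spread over 2 libraries.

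Hmgcs1 makes HMG-CoA, the precursor of mevalonate. It was at 60.4 and 61.6 CPM in GFP+ labelled libraries and at 53.6 and 42.8 CPM in RFP+ labelled libraries. These did not overlap, but the RFP+ labelled libraries differed from each other by more than the gap between populations. The log2 fold was 0.32 ± 0.13, at an edgeR adjusted p of 0.0482, and the call held under 2 of 12 alternatives. The log2 fold was 0.19 without the second RFP+ labelled library (edgeR adjusted p = 0.399) and 0.16 with thinned cells (0.565). The edgeR adjusted p was 0.0966 without the first and 0.156 without the second GFP+ labelled library.

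The other mevalonate genes did not pass the test. Acat2, the cytosolic thiolase of the first step, was at 25.0 and 26.7 CPM in GFP+ labelled and 27.9 and 27.8 CPM in RFP+ labelled libraries, a log2 fold of -0.12 ± 0.17. Mvk and Pmvk, the kinases that phosphorylate mevalonate, had log2 folds of 0.13 ± 0.19 and -0.042 ± 0.18, and Fdps, which makes farnesyl diphosphate, 0.087 ± 0.16. Mvd, the decarboxylase of the last mevalonate step, had 13 and 13 counts in GFP+ labelled and 21 and 15 in RFP+ labelled libraries and was not tested. Exons of Idi1 and Hmgcs1 overlap minor loci (Gm48574, Gm48342) on the other strand, and those of Fdps overlap Gm43738 on the same strand, which limits how surely reads were assigned.

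Between squalene and lanosterol, Sqle, the oxygen-dependent squalene epoxidase at chr15:59315077-59331192, was at 78.9 and 78.8 CPM in GFP+ labelled libraries and at 59.4 and 59.2 CPM in RFP+ labelled libraries. The libraries of a population nearly coincided. The log2 fold was 0.40 ± 0.11 (edgeR adjusted p = 0.00535), and the call was lost in DESeq2 (adjusted p = 0.182) and with thinned cells (edgeR adjusted p = 0.0846). Fdft1, the squalene synthase before it, was at 34.3 and 40.4 CPM in GFP+ labelled and 39.6 and 36.1 CPM in RFP+ labelled libraries, which overlapped (log2 fold -0.036 ± 0.15). Its exons overlap those of Ctsb on the other strand, and whether the counting used strand is not given. Lss, which closes the ring to lanosterol, had 24 and 26 counts in GFP+ labelled and 32 and 18 in RFP+ labelled libraries and was not tested.

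Of the 8 late sterol genes 7 were tested, and 3 were higher, 1 lower and 3 not called. Cyp51, the lanosterol demethylase at chr5:4081145-4104746, was at 136 and 142 CPM in GFP+ labelled libraries and at 92.2 and 94.0 CPM in RFP+ labelled libraries. The gap was wide against the spread within each population, at a log2 fold of 0.56 ± 0.089 and an edgeR adjusted p of 3.34e-06. Cyp51 was called in all 12 alternatives, with log2 folds from 0.44 to 0.62, DESeq2 included (adjusted p = 0.00293). Its exons overlap those of Akap9 on the other strand.

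Hsd17b7, a sterol ketoreductase that also acts on estrogens, lies at chr1:169949535-169969241. It was at 39.3 and 32.9 CPM in GFP+ labelled libraries and at 22.1 and 22.1 CPM in RFP+ labelled libraries. The populations did not overlap, and the log2 fold was 0.70 ± 0.17 (edgeR adjusted p = 0.00125), with DESeq2's adjusted p at 0.103 and an edgeR adjusted p of 0.0651 with thinned cells. Msmo1, the oxidase that starts removal of methyl groups, was at 97.8 and 105 CPM in GFP+ labelled libraries and at 84.1 and 83.3 CPM in RFP+ labelled libraries. That is a smaller difference, at a log2 fold of 0.27 ± 0.098 and an edgeR adjusted p of 0.0348, which was past the threshold neither with thinned cells (edgeR adjusted p = 0.137) nor without the second GFP+ labelled library (log2 fold 0.20, edgeR adjusted p = 0.263). The call of Msmo1 held under only 5 of 12 alternatives. It was also lost in DESeq2 and without the first or the second RFP+ labelled library.

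Dhcr7, the reductase that removes the last double bond of one branch, lies at chr7:143823145-143848410 and was the 1 gene called lower. It was at 8.08 and 9.41 CPM in GFP+ labelled libraries and at 16.9 and 16.1 CPM in RFP+ labelled libraries, a log2 fold of -0.92 ± 0.25 (edgeR adjusted p = 0.00474). These are 21 and 24 counts in GFP+ labelled libraries and 52 and 48 counts in RFP+ labelled libraries, and the gene passed the filter of 10 CPM through the RFP+ labelled libraries only. The call was lost without the first GFP+ labelled library (edgeR adjusted p = 0.0566), in DESeq2 (adjusted p = 0.168) and with thinned cells, where the log2 fold was -0.57 (edgeR adjusted p = 0.255).

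The other 3 late genes tested were not called. Sc5d, a sterol desaturase, was at 65.8 and 63.1 CPM in GFP+ labelled libraries and at 49.3 and 56.2 CPM in RFP+ labelled libraries, which did not overlap (log2 fold 0.28 ± 0.12, edgeR adjusted p = 0.0784). Ebp, a sterol isomerase, was at 83.5 and 92.5 CPM in GFP+ labelled libraries and at 101 and 90.3 CPM in RFP+ labelled libraries, which overlapped (-0.13 ± 0.10). Nsdhl, a dehydrogenase of methyl group removal, had a log2 fold of 0.32 ± 0.24 at 12.0 to 16.5 CPM, and Tm7sf2, a sterol reductase, had 8 to 16 counts per library and was not tested.

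**Figure D2:**
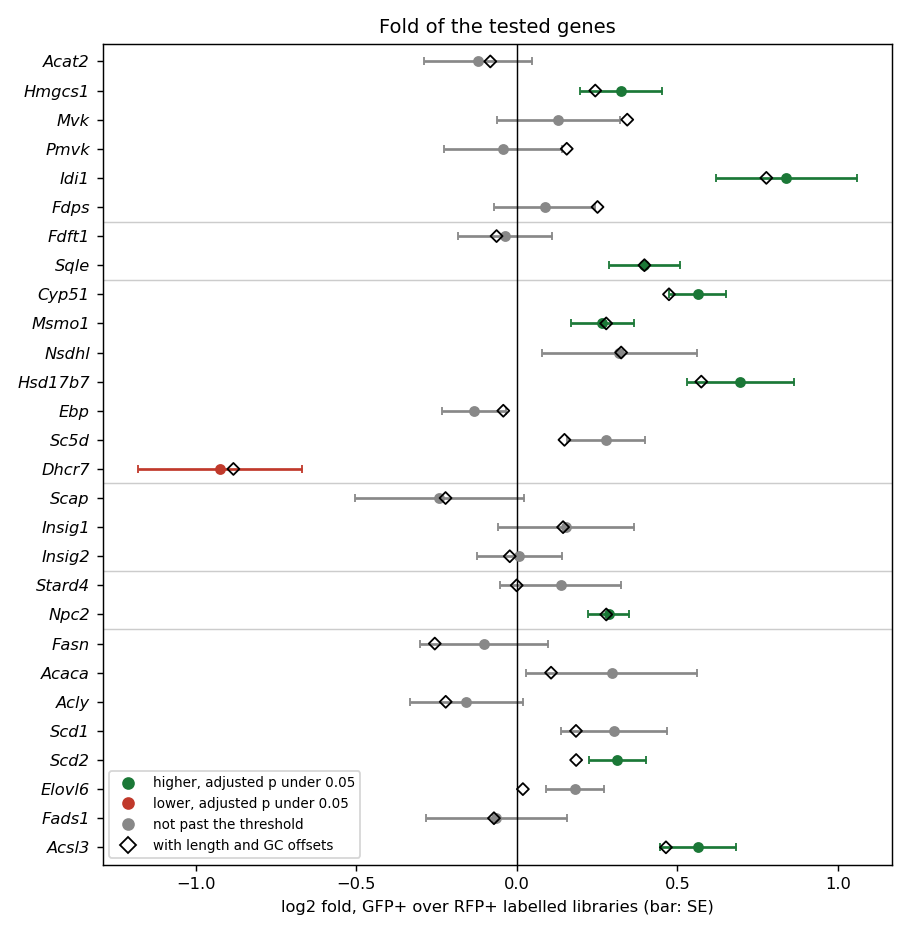
Log2 fold, GFP+ over RFP+ labelled libraries, of the 28 tested genes with SE bars (edgeR, n = 2 libraries each); green points passed the threshold as higher, red as lower, grey did not pass, and diamonds give the fold after removal of a trend with transcript length and GC content. Idi1 has the highest fold at 0.84 and Dhcr7 the lowest at -0.92.

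The regulators gave no call. Srebf1 was at 6.54 and 8.23 CPM in GFP+ labelled libraries and at 8.76 and 9.70 CPM in RFP+ labelled libraries, and Srebf2 at 5.77 and 8.23 CPM in GFP+ labelled libraries and at 5.84 and 4.68 CPM in RFP+ labelled libraries. Both lay under the filter and were not tested. Insig2 was at 55.0 and 45.9 CPM in GFP+ labelled libraries and at 46.4 and 53.2 CPM in RFP+ labelled libraries, which overlapped (log2 fold 0.0073 ± 0.13). Insig1, itself a target of SREBP, had a log2 fold of 0.15 ± 0.21 and Scap one of -0.24 ± 0.26 (95% intervals -0.26 to 0.57 and -0.76 to 0.27). RNA levels do not show how much SREBP is cut and active.

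In sterol transport, Npc2, at chr12:84754562-84773152, binds cholesterol in the lysosome and passes it to Npc1 for export. It was at 383 and 403 CPM in GFP+ labelled libraries and at 303 and 335 CPM in RFP+ labelled libraries. The populations did not overlap, with a log2 fold of 0.29 ± 0.064 (edgeR adjusted p = 0.000539), and Npc2 was called in all 12 alternatives. Stard4, a cytosolic sterol carrier, was at 22.7 and 26.7 CPM in GFP+ labelled and 25.0 and 19.4 CPM in RFP+ labelled libraries (0.14 ± 0.19). Npc1 had 5 to 9 counts per library, and Abca1, which exports cholesterol, had 2 and 0 counts in GFP+ labelled and 0 and 0 in RFP+ labelled libraries, where a count of 0 allows up to 0.974 to 1.18 CPM.

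Of the 9 fatty acid genes 8 were tested, 2 were higher and 6 were not called. Acsl3, at chr1:78657825-78707743, activates fatty acids and acts in lipid droplet formation. It was at 82.4 and 103.5 CPM in GFP+ labelled libraries and at 69.1 and 55.2 CPM in RFP+ labelled libraries, a log2 fold of 0.56 ± 0.12 (edgeR adjusted p = 0.000237), and was called in all 12 alternatives. Its exons overlap those of Utp14b on the same strand, so the counts of the pair cannot be told apart there. Scd2, a stearoyl-CoA desaturase, was at 122 and 126 CPM in GFP+ labelled libraries and at 100.3 and 97.4 CPM in RFP+ labelled libraries (log2 fold 0.31 ± 0.090, edgeR adjusted p = 0.00671). Offsets for length and GC content left a log2 fold of 0.18 for Scd2 (edgeR adjusted p = 0.13). Without the second GFP+ labelled library it was 0.28, also not called. DESeq2 did not call Scd2 either, and the call held under 9 of 12 alternatives. Both Scd2 and its close copy Scd1 are uncertain where they share reads.

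The core enzymes of fatty acid synthesis were not called. Fasn, the synthase itself, was at 21.2 and 18.4 CPM in GFP+ labelled and 22.7 and 19.4 CPM in RFP+ labelled libraries (log2 fold -0.10 ± 0.20). Acly, which supplies acetyl-CoA, had a log2 fold of -0.16 ± 0.18, Scd1 of 0.30 ± 0.17, Fads1, a desaturase, of -0.064 ± 0.22, and Acaca, the carboxylase, of 0.29 ± 0.27, having passed the filter through the GFP+ labelled libraries only. Elovl6, an elongase, was at 114 and 114 CPM in GFP+ labelled libraries and at 102 and 98.0 CPM in RFP+ labelled libraries; these did not overlap, but the log2 fold of 0.18 ± 0.091 was not called (edgeR adjusted p = 0.129) and was 0.02 with length and GC offsets. Fads2 had 12 to 16 counts per library and was not tested.

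Summed by step, every group but the regulators was higher in both GFP+ labelled libraries. Of all single genes tested, 34.3% separated in this direction. The sums include the genes called above, so they do not show that whole steps were raised. Sqle had a mean of 78.9 CPM in GFP+ labelled and 59.3 CPM in RFP+ labelled libraries, and Cyp51 one of 139 and 93.1 CPM. Fdft1, in the same step as Sqle, had a mean of 37.3 and 37.9 CPM. The late sterol genes summed to 457 ± 10.7 CPM in GFP+ labelled and 381 ± 1.59 CPM in RFP+ labelled libraries (SD, n = 2), and the fatty acid genes to 443 ± 10.5 CPM in GFP+ labelled and 368 ± 23.3 CPM in RFP+ labelled libraries. The transport genes, mostly Npc2, summed to 421 ± 15.1 CPM in GFP+ labelled and 344 ± 18.8 CPM in RFP+ labelled libraries. The mevalonate genes summed to 196 ± 6.69 CPM in GFP+ labelled and 171 ± 16.8 CPM in RFP+ labelled libraries, and the squalene to lanosterol genes to 126 ± 4.95 CPM in GFP+ labelled and 105 ± 5.65 CPM in RFP+ labelled libraries. The regulators summed to 94.9 ± 5.62 CPM in GFP+ labelled and 94.1 ± 1.47 CPM in RFP+ labelled libraries, which overlapped. With thinned cells the libraries also overlapped for the mevalonate genes (0.185 and 0.2 counts per cell in GFP+ labelled, 0.192 and 0.168 in RFP+ labelled libraries) and for squalene to lanosterol (0.116 and 0.127 in GFP+ labelled, 0.12 and 0.0991 in RFP+ labelled libraries). With 2 libraries against 2, an exact two-sided permutation test cannot go below p = 0.33, so these sums carry no test. In sums over cells, fewer cells expressing a gene and less RNA per cell cannot be told apart.

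**Figure D3:**
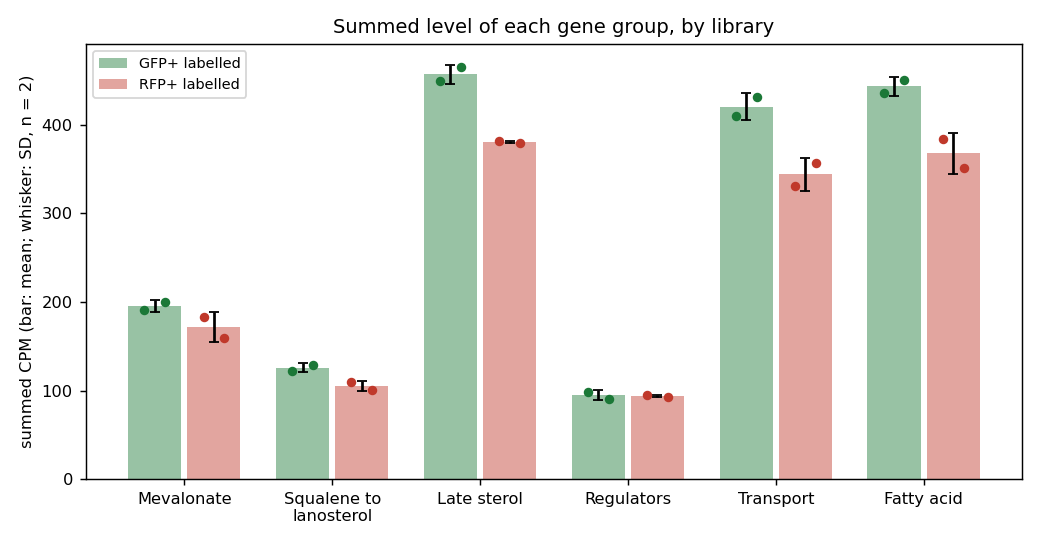
Summed level (CPM) of each group of genes; bars are means of 2 libraries, GFP+ labelled first, whiskers are SD and points are libraries. The late sterol genes sum to 457 CPM in GFP+ labelled and 381 CPM in RFP+ labelled libraries, and the regulators to 94.9 CPM in GFP+ labelled and 94.1 CPM in RFP+ labelled libraries.

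Folds in this comparison went with transcript length: over all genes tested, the median log2 fold was -0.15 in the shortest and 0.21 in the longest of 5 length bins, and the members tested had a median transcript length of 3462 bases against 3008 over all genes tested. After offsets for length and GC content 7 of the 28 genes were higher and 1 lower, where 12.3% and 11.7% of all genes were. Cyp51 then had a log2 fold of 0.47, Idi1 of 0.78, Hsd17b7 of 0.57, Sqle of 0.40, Acsl3 of 0.46 and Dhcr7 of -0.88.

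Of 90 other genes of these pathways with a row, 59 were tested. Of these, 11 were higher in GFP+ labelled libraries and 5 lower, and their median log2 fold was 0.088. Among all genes tested 15.7% were higher and 14.9% lower, and the counts of each list below are to be read beside these shares. Of the further sterol synthesis genes 5 of 15 tested were higher and 0 lower by edgeR (0 lower also at an unadjusted p under 0.05 and by DESeq2). Cyb5r3, the reductase that feeds electrons to sterol oxidation, was at 476 and 492 CPM in GFP+ labelled libraries and at 320 and 346 CPM in RFP+ labelled libraries (log2 fold 0.53 ± 0.061, edgeR adjusted p = 5.58e-09). Emp2, a membrane protein of the list, was at 219 and 190 CPM in GFP+ labelled and 165 and 145 CPM in RFP+ labelled libraries (0.39 ± 0.079, edgeR adjusted p = 0.000189), with a log2 fold of 0.22 and an edgeR adjusted p of 0.12 in thinned cells. Of the uptake and efflux genes 4 of 9 tested were higher and 1 lower. Soat1, which esterifies cholesterol for storage, was at 38.1 and 38.4 CPM in GFP+ labelled libraries and at 17.2 and 18.4 CPM in RFP+ labelled libraries. That is a 2.13-fold difference, larger than for any of the 9 genes called higher above (log2 fold 1.09 ± 0.17, edgeR adjusted p = 3.16e-06).

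Lamp1, a lysosomal membrane protein, was at 465 and 489 CPM in GFP+ labelled libraries and at 404 and 374 CPM in RFP+ labelled libraries (log2 fold 0.28 ± 0.060, edgeR adjusted p = 0.00032). Lipa is the lysosomal acid lipase that frees cholesterol from its esters. It was at 31.9 and 29.4 CPM in GFP+ labelled and 19.5 and 22.4 CPM in RFP+ labelled libraries. The call of Lipa (edgeR adjusted p = 0.0167) held under only 5 of 11 alternatives, with log2 folds from 0.43 to 0.69. Among the settings that lost it were DESeq2 and leaving out the first GFP+ labelled or the first RFP+ labelled library. Scarb1, a receptor for high-density lipoprotein, was lower, at 21.9 and 27.8 CPM in GFP+ labelled libraries and 35.7 and 35.1 CPM in RFP+ labelled libraries (log2 fold -0.52 ± 0.16, edgeR adjusted p = 0.0134; -0.35 and 0.197 without the first GFP+ labelled library). The call of Scarb1 held under only 4 of 11 alternatives. It was also lost without the first or the second RFP+ labelled library, and DESeq2 called 0 of the 9 tested genes of this list lower.

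Among SREBP control genes 1 of 13 tested was higher, Hnrnpm, an RNA-binding protein, and 0 were lower by edgeR (1 at an unadjusted p under 0.05, 0 by DESeq2). Of the lipogenesis genes 1 of 22 tested was higher and 4 were lower. Acsl4, which activates long polyunsaturated fatty acids, was at 233.2 and 232.5 CPM in GFP+ labelled libraries and at 187 and 169 CPM in RFP+ labelled libraries (log2 fold 0.38 ± 0.072, edgeR adjusted p = 7.67e-05). Plin2, which coats lipid droplets, was at 122 and 123 CPM in GFP+ labelled libraries and at 159 and 147 CPM in RFP+ labelled libraries (log2 fold -0.34 ± 0.082, edgeR adjusted p = 0.00155, DESeq2 adjusted p = 0.0983). Cyb5a, the electron carrier of desaturases, was also lower (-0.42 ± 0.091, edgeR adjusted p = 0.000367), as was Ldhb, a lactate dehydrogenase subunit (-0.42 ± 0.12, edgeR adjusted p = 0.009; -0.26 and 0.224 without the first RFP+ labelled library).

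In single cells these genes were sparse. In cells thinned to 1000 counts, which left out 178 and 565 cells of the GFP+ labelled and 453 and 574 cells of the RFP+ labelled libraries, Cyp51 had a count in 12.7% and 12.3% of cells in GFP+ labelled libraries (95% Clopper-Pearson 11.0 to 14.5% and 10.5 to 14.3%) and in 10.4% and 8.01% in RFP+ labelled libraries (8.88 to 12.0% and 6.65 to 9.55%). Without thinning the shares were 18.5% and 16.4% in GFP+ labelled and 12.4% and 11.7% in RFP+ labelled libraries. Npc2 had a count in 30.1% and 33.7% of cells in GFP+ labelled and 25.4% and 27.5% in RFP+ labelled libraries. At least 1 count of the 18 sterol synthesis genes was in 52.5% and 52.9% of cells in GFP+ labelled and 49.4% and 45.5% in RFP+ labelled libraries. Of the listed immune, endothelial, erythroid and fat cell genes, which the cells should lack, 15 had a row. Of these, 8 were never seen and the highest share was 1.19%. The shares of Cyp51 and Npc2 stood above that background. Those of Dhcr7, at 0.987% and 1.14% in GFP+ labelled and 2.01% and 1.12% in RFP+ labelled libraries, were near it. Idi1 was at 2.54% and 2.51% in GFP+ labelled and at 1.75% and 1.19% in RFP+ labelled libraries, the last no higher than that background. Intervals cover counting error only, and whether counts are distinct molecules is not given.

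A difference in the other genes between cells with and without a mevalonate count was not detectable at this depth. A mevalonate count was found in 16.5% and 17.6% of thinned cells in GFP+ labelled and 17.2% and 15.2% in RFP+ labelled libraries. The other 29 genes were at 1.08 times (95% counting interval 0.967 to 1.21) and 1.01 times (0.901 to 1.14) the level of cells without one in GFP+ labelled libraries, and at 1.0 times (0.891 to 1.12) and 0.984 times (0.865 to 1.12) in RFP+ labelled libraries. All 4 intervals held 1. The median over 1685 genes with at least 100 CPM was 0.995. The non-members with the highest median ratio, among genes above 1 in all 4 libraries, were Krt7 and Ptrf at 1.34, Bcas2 at 1.28 and Adamts1 at 1.26. Such ratios were above 1 in all 4 libraries for 78 of the 1685 genes (4.63%). The named genes are the top of a ranking on these same ratios, and a link to the mevalonate genes was not tested. Adamts1 had 27 and 34 counts in the cells with a mevalonate count in GFP+ labelled libraries, and 52 and 42 in RFP+ labelled libraries.

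Along the epithelial to mesenchymal axis within each library, cut into 3 equal bins of cells by the ratio of mesenchymal to epithelial marker counts, the ratio of the 18 sterol synthesis genes between the ends was under 1 in 4 of 4 libraries. The most mesenchymal bin was at 0.960 and 0.966 times the most epithelial bin in GFP+ labelled libraries and at 0.917 and 0.890 times in RFP+ labelled libraries. The 95% counting interval held 1 in the first 3 (0.861 to 1.07, 0.869 to 1.07 and 0.827 to 1.02) and ended at 0.991 in the second RFP+ labelled library. No share over all genes stands beside these ratios, so how common this direction is was not tested. The cells were not thinned. Median counts per cell were 1380 in the most epithelial and 1193 in the most mesenchymal bin of the second RFP+ labelled library. They were 1292.5 and 1211 in the first RFP+ labelled library. In the GFP+ labelled libraries they were 1348 and 1353 in the first and 1142 and 1200 in the second. Cyp51 was at 0.823 to 0.966 times. Other groups did not share this direction. The fatty acid genes were at 0.970 and 0.928 times in GFP+ labelled libraries and at 1.26 (1.10 to 1.45) and 1.08 times in RFP+ labelled libraries, and the transport genes at 1.18 (1.02 to 1.36) and 1.08 times in GFP+ labelled libraries and at 1.08 and 0.979 times in RFP+ labelled libraries. Scd2 was at 1.02 and 0.937 times in GFP+ labelled and at 1.31 and 1.49 times in RFP+ labelled libraries. All 36 genes together were at 0.962 to 1.04 times. Acsl3 was above 1 in 3 of 4 libraries (0.993 to 1.46 times).

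**Figure D4:**
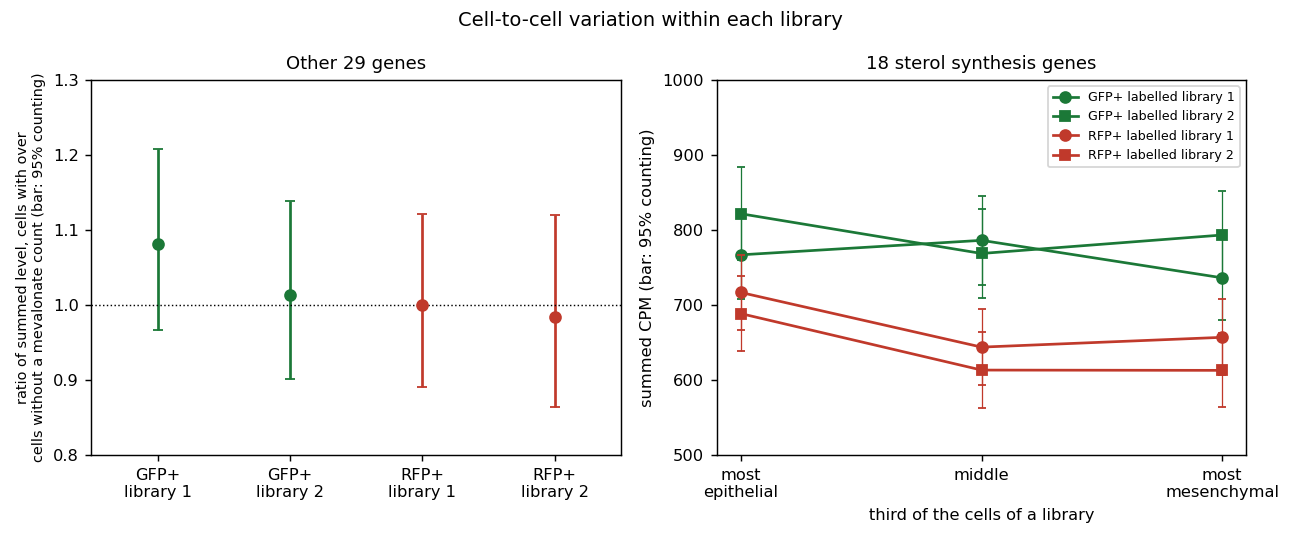
Left, level of the other 29 genes in cells with a mevalonate count over cells without one, per library with 95% counting intervals, all of which hold 1. Right, summed level (CPM) of the 18 sterol synthesis genes in 3 equal bins of cells from the epithelial to the mesenchymal end of each library, GFP+ labelled libraries first, with 95% counting intervals as bars; the most mesenchymal bin is at 0.960 and 0.966 times the most epithelial in GFP+ labelled libraries and at 0.917 and 0.890 times in RFP+ labelled libraries.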

How the data were processed

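Polyadenylated RNA of sorted Tri-PyMT cells was captured and counted by Drop-seq, per the labels' protocols. The submitters' processing notes name GRCm38. The authors deposited raw counts per gene and cell in 1 table; not given in the sources used here are the aligner, the counter, use of strand and collapsing of molecular identifiers. Column names give the library but not the lane. Of 7400 cells, 7390 that held 500 counts or more, less than 20% of them mitochondrial, were used; no doublet caller was run. Of the cell barcodes 2 occurred in more than 1 library, and 0 of the kept cells carried one. Within a population, libraries differed by more than sampling noise (chi-square per degree of freedom 1.41 in GFP+ labelled and 1.36 in RFP+ labelled libraries) and were kept as separate.

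The quasi-likelihood F test of edgeR 4.0.16 (R 4.3.3) was run on counts summed per library (normalization by TMM, no covariate, Benjamini-Hochberg adjustment over all genes with at least 10 CPM in either population's mean and 20 counts in all); the step was tested on simulated data first. The SE was taken as the size of the log2 fold divided by the root of F. Alternatives were DESeq2 1.42.0, other size factors and filters, thinning, offsets for transcript length and GC content (GENCODE M21), and leaving out each library. The comparison of cells with and without a mevalonate count was chosen after seeing the data, since too few cells held one to cut them into 3 bins. The gene set and the lists were chosen with earlier results of these data known. Described in full are genes past the threshold or with at least 50 CPM, and per further list at most 4 called genes with the largest change; some genes under this rule are not reported here.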

Additional observations from a re-analysis of the deposited data

How the results depend on the processing

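The 10 calls among the 28 tested genes were recomputed under up to 12 alternatives (11 for Idi1, Hsd17b7 and Dhcr7, which a filter of 50 CPM removes), and none changed sign. Cyp51, Npc2 and Acsl3 were called in all 12. Of the 18 genes not called, 12 changed sign in some alternative, and Sc5d alone gained a call, without the 5% of cells with the most counts. The number called higher was 9, against 3 in DESeq2, 4 with thinned cells and 6 to 8 when a library was left out. The number called lower was 1, against 0 in DESeq2 (1 at an unadjusted p under 0.05), 0 under the filter of 50 CPM, 0 in edgeR with thinned cells and 0 to 1 when a library was left out. Of the 59 further pathway genes, 11 were higher and 5 lower, against 7 higher and 1 lower in DESeq2, 3 lower without a filter, 2 lower with length and GC offsets, and 3 to 5 lower when a library was left out. The ratio of the squalene to lanosterol sum was 1.19, and 1.11 with thinned cells, where the libraries of the populations overlapped. The cause of these shifts was not tested. The other 29 genes in cells with over without a mevalonate count had a median ratio of 1.01 over libraries, 1.02 with 750 counts per cell and 1.01 without the deepest cells. Cutting cells by mevalonate counts into upper and lower bins was not run, because most cells hold none. No paired analysis was possible because the library numbers in the columns of the 2 populations share only 1 number. Depth limits the 8 untested genes, which include Srebf1 and Srebf2.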
